A study of Mus musculus with 12 samples.

Results

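The genes that encode oxidative phosphorylation were followed in the left ventricle of 12 male C57BL/6 mice, separately for the subunits encoded in mitochondrial DNA and for those encoded in the nucleus. Protein-coding genes were taken by symbol: every gene of the mitochondrial genome (prefix mt-), and the nuclear genes that begin with Nduf, Uqcr, Cox4i, Cox5, Cox6, Cox7, Cox8 or Atp5 or are named Sdha, Sdhb, Sdhc, Sdhd, Cyc1 or Cycs. The rule found 106 of the 25319 genes counted, 13 mitochondrial and 93 nuclear. Mice had a sham operation or transverse aortic constriction (TAC), a clip on the aortic arch that loads the ventricle, at 8 weeks of age, and the ventricle was taken at 12 weeks. In each surgery arm 3 mice received dantrolene, a ryanodine receptor inhibitor, by mouth at 30 mg/kg per day for 4 weeks, and 3 were controls. A library is named by surgery, treatment and replicate number, as in TAC control 3. All 12 hearts were arrested with potassium chloride, and all libraries were made from polyadenylated RNA. The labels name each mouse as a biological replicate.

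The respiratory chain passes electrons through complexes I to IV in the inner mitochondrial membrane and pumps protons, and complex V uses the proton gradient to make ATP. Heart muscle depends on this pathway for contraction and is densely packed with mitochondria. Complex II is built entirely from nuclear genes, while complexes I, III, IV and V mix subunits from both genomes. Mitochondrial DNA is copied into long transcripts from both strands, which are cut into messenger, ribosomal and transfer RNAs, whereas each nuclear subunit has its own promoter and its protein is imported. Nuclear respiratory factor 1, the ETS family factor GABP, YY1 and estrogen-related receptors are textbook regulators of the nuclear genes.

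The mitochondrial set held 7 subunits of complex I, 1 of complex III (cytochrome b), 3 of complex IV and 2 of complex V. The nuclear set held 36 subunits of complex I, of which 7 are core subunits and 29 accessory ones, with 7 complex I assembly factors. It also held 4 subunits of complex II, 9 of complex III, cytochrome c (Cycs), 18 of complex IV, the supercomplex factor Cox7a2l, 15 of complex V, and Atp5s and Atp5sl, which are no subunits of the complex. After the filter on low counts 105 genes were tested. Cox7b2, a complex IV isoform known from testis, failed the filter with 0 to 10 reads per library.

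Part of the mitochondrial genome has near-identical copies on nuclear chromosome 1, and these decide how well a read can be placed. Sequences of 1 read length, 150 bases, are shown because they separate the mitochondrial members into those whose reads fit a second locus and those whose reads do not. The start of mt-Co2 (chrM:7013-7162, GRCm38, plus strand) and of the annotated pseudogene Gm28661 (chr1:24615416-24615565, minus strand) were the same in all 150 bases, so no letter is in capitals.
mt-Co2: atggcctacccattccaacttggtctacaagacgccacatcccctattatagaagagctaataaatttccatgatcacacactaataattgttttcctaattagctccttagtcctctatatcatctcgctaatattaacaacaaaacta
Gm28661: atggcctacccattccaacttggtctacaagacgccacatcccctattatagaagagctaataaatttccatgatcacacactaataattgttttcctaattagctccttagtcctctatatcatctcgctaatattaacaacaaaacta

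By contrast, the first part of mt-Cytb (chrM:14146-14295, plus strand) and its closest relative among the other annotated transcripts, Gm11410 (chr4:80003990-80004139, plus strand), differed at 10 of 150 bases. Capitals mark those 10 positions.
mt-Cytb: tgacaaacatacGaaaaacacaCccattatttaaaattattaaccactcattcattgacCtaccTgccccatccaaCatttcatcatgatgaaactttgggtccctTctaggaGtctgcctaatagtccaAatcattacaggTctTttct
Gm11410: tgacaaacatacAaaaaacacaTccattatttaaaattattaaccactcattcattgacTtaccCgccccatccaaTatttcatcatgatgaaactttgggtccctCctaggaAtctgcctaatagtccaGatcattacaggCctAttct

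The genes of both mitochondrial ATP synthase subunits overlap on the same strand, so the end of mt-Atp8 (chrM:7897-7969) and the start of mt-Atp6 (chrM:7927-7999) share 43 bases. Those bases are in capitals, and a read of 150 bases that covers them also covers bases of 1 gene alone.
mt-Atp8: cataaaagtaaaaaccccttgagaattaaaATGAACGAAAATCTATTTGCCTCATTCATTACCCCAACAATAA
mt-Atp6: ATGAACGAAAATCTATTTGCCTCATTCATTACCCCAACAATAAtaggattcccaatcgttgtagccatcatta

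With a near-identical copy defined as one that differs in at most 0.5% of bases over at least 250 aligned bases, 7 of the 13 mitochondrial members had one and 6 did not. The copy covered nearly the whole transcript of mt-Co2 (99.6%), mt-Co3 (99.9%, pseudogene Gm28437), mt-Atp6 (99.6%, Gm10925), mt-Nd3 (99.1%, Gm28438) and mt-Nd4l (99.0%, Gm10222). It covered 63.6% of mt-Nd4 and 31.3% of mt-Co1. In the nuclear set 7 members had such a copy (Ndufa12, Ndufab1, Ndufb4, Atp5g1, Atp5g2, Atp5l and Cycs). How the counting treated reads that fit 2 loci is not given in the sources used here, so the levels of these genes are uncertain.

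Promoters of 3 nuclear members are printed because they carry the motif that the nuclear set held most often. Sequences are the 250 bases before the RefSeq start (GRCm38.p6), matched by symbol for 74 of the 93 nuclear members. Capitals mark matches on either strand of the nuclear respiratory factor 1 motif, which is GCGCA and GCGC with any 1 base between them, and of the ETS motif CCGGAAG. Cox6a1 (chr5:115348959-115349208, minus strand) encodes the widely expressed form of complex IV subunit VIa, Sdhd (chr9:50603850-50604099, minus strand) a membrane anchor of complex II, and Atp5k (chr5:108434400-108434649, minus strand) the small subunit e of complex V.
Cox6a1: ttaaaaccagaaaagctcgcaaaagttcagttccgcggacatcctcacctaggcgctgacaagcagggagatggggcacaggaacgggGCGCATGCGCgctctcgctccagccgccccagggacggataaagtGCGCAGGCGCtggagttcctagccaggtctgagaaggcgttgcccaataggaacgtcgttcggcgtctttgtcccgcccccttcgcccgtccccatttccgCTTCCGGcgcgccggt
Sdhd: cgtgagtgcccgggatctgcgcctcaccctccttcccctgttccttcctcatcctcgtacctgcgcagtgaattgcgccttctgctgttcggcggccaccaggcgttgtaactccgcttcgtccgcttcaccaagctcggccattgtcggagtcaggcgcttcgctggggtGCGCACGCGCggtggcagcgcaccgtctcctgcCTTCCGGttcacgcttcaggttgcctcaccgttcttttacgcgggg
Atp5k: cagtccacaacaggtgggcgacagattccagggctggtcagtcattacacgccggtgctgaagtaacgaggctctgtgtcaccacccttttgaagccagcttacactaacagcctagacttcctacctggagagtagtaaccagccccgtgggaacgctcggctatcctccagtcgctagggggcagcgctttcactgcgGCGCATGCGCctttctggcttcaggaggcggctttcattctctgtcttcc

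Over windows from 250 bases before to 50 bases after the start, the nuclear respiratory factor 1 motif was in 25.3% of the 79 windows of nuclear members, against 4.60% of all 32851 windows in the table. CCGGAAG was in 21.5% against 8.86%, the YY1 motif AAGATGGC in 11.4% against 2.75%, and the estrogen-related receptor motif CAAGGTCA in 5.06% against 1.56%. TATAAA was in 10.1% of member windows and 13.6% of all windows. Both strands were searched, and a match is a description of letters, not of binding.

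The libraries held 25766378 to 38363106 counts each. In a principal component analysis of log2 CPM (counts scaled to library size) the first component, 41.7% of the variance, set 4 libraries apart from the other 8: TAC control 1, TAC dantrolene 1 and replicate 3 of both sham groups. Every group holds 1 of them, and some results are also given without them or without 1 of them. The 6 cardiomyocyte markers Myh6, Tnnt2, Actc1, Myl2, Tnni3 and Ryr2 summed to between 41440 and 57006 CPM in all libraries, and 3 white adipocyte markers to at most 1.69 CPM. Single cardiomyocyte markers varied more than their sum, and not in the same direction. Myh6 had 3152 CPM in TAC dantrolene 1 and 18872 CPM in TAC dantrolene 2, its lowest and highest libraries. Myl2 had 22618 and 7669 CPM there, its highest and lowest. Atrial markers summed to 1.79 to 13.2 CPM, brown adipocyte markers, which mark another tissue rich in mitochondria, to 28.1 to 65.5 CPM, with Ucp1 at 0.021 CPM or less, and erythroid markers to between 605 and 8836 CPM, highest in TAC dantrolene 1. The 5 skeletal muscle markers summed to between 3655 CPM in TAC dantrolene 3 and 12327 CPM in TAC dantrolene 1, the libraries with the lowest and the highest nuclear share; nearly all of it was Ckm and Acta1, which the heart also expresses, and Myh4 was at 0.041 CPM or less. Fibroblast markers summed to 223 to 911 CPM, highest in TAC control 3, the library with the largest mitochondrial share. Most of that sum was Dcn (743 CPM), and the other fibroblast markers were highest elsewhere. Col1a1 was highest in TAC control 2 (171 CPM), Pdgfra in TAC dantrolene 3 (20.7 CPM) and Tcf21 in TAC dantrolene 1 (26.2 CPM). The part of these other cells in the results was not tested. In whole tissue, fewer cells of a type and less RNA per cell cannot be told apart.

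The levels of the 13 mitochondrial members, in FPKM (fragments scaled by transcript length and library size, which allow genes to be compared), ran from 12.2 to 41675 FPKM in their medians. Highest was mt-Co1, the catalytic core of complex IV (chrM:5328-6872), with a median of 41675 FPKM over the 12 libraries, first of all 106 members. The complex I core subunit mt-Nd1 followed with a median of 5983 FPKM, then mt-Atp8 with 5209 FPKM and mt-Cytb, which carries the b hemes of complex III, with 4497 FPKM. The 5 members with a nearly whole nuclear copy were the 5 lowest of the 13: mt-Atp6 (260.1 FPKM), mt-Co3 (238 FPKM), mt-Nd3 (95.3 FPKM), mt-Nd4l (14.4 FPKM) and mt-Co2 (12.2 FPKM). The catalytic subunits mt-Co1 and mt-Co2 of the same complex thus stood at the opposite ends of this order.

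**Figure D1:**
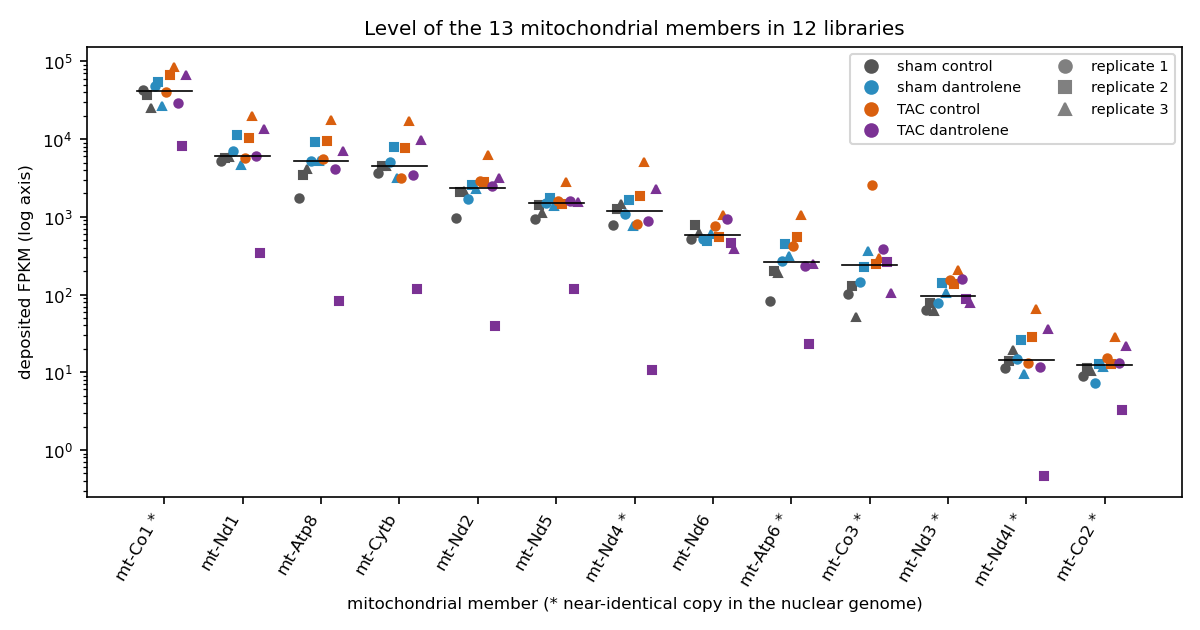
Deposited FPKM of the 13 mitochondrial members (log axis) in each library, coloured by group with a marker shape per replicate, the black line being the median of 12 libraries. Members with an asterisk have a near-identical copy in the nuclear genome over at least 250 bases, and the 5 lowest, from mt-Atp6 to mt-Co2, have one over nearly their whole length; TAC dantrolene 2 lies far below the other libraries for most members.

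In the nuclear set the highest medians were those of Cox4i1, the main isoform of the largest nuclear subunit of complex IV (5273 FPKM), and of Cox6a2, the heart and muscle form of subunit VIa (4476 FPKM). Complex V and complex IV had the highest median levels over their nuclear members, 1413 FPKM in both, followed by complex III with 1117 FPKM, complex I with 509.9 FPKM and complex II with 363 FPKM. Complex I assembly factors had a median of 17.4 FPKM, with Ndufaf4 lowest at 6.3 FPKM. These helpers build complex I and are not part of the finished enzyme.

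Of all counts, the mitochondrial members took 9.13%, 8.68% and 6.91% in the 3 sham control libraries and 10.97%, 13.2% and 7.32% in the sham dantrolene libraries. They took 9.87%, 15.2% and 21.8% in TAC control and 7.47%, 1.61% and 16.3% in TAC dantrolene. The group means were 8.24% ± 1.18, 10.5% ± 2.97, 15.6% ± 5.97 and 8.45% ± 7.39 (SD, n = 3 each). Each TAC control library was above each sham control library, and TAC dantrolene held both the lowest of the 12 libraries and the one second from the top.

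The nuclear members took a steadier share: 10.5%, 9.40% and 10.8% in sham control, 9.88%, 9.78% and 12.0% in sham dantrolene, 12.7%, 9.97% and 8.88% in TAC control, and 14.4%, 8.74% and 8.23% in TAC dantrolene. Group means, in that order, were 10.2% ± 0.727, 10.6% ± 1.27, 10.5% ± 1.99 and 10.5% ± 3.42 (SD, n = 3 each). The totals behind these shares include the mitochondrial reads. Of the counts outside the mitochondrial genome, the nuclear members took 11.2% ± 0.730, 11.8% ± 1.03, 12.5% ± 1.52 and 11.5% ± 3.64. In TAC control 3 that share was 11.4%, against 8.88% of all counts. The nuclear share was highest in TAC dantrolene 1 and TAC control 1, both among the 4 libraries apart, and those were not the libraries with the most mitochondrial reads. Mitochondrial counts were 2.45 times the nuclear ones in TAC control 3 and 1.98 times in TAC dantrolene 3, but 0.519 times in TAC dantrolene 1 and 0.184 times in TAC dantrolene 2.

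**Figure D2:**
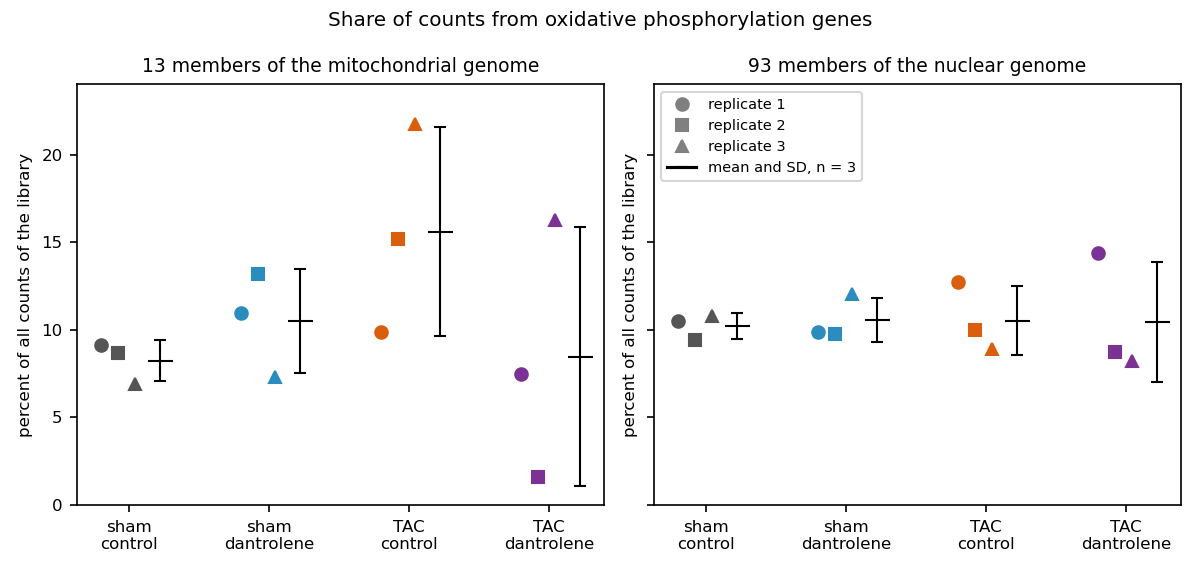
Percent of all counts of a library from the 13 mitochondrial (left) and the 93 nuclear members (right) by group, with a marker shape per replicate and the mean and SD of 3 beside them. The mitochondrial share runs from 1.61% to 21.8%, the nuclear share from 8.23% to 14.4%, and the order of the libraries differs between the panels.

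Gene by gene the same libraries led. Of the 13 mitochondrial members, 10 were highest in TAC control 3 and 10 lowest in TAC dantrolene 2. Of the 92 nuclear members tested, 73 were highest in TAC dantrolene 1 and 5 in TAC control 1, while 68 were lowest in TAC dantrolene 2 or 3. Within a group the mitochondrial members had a median SD of 1.36 on the log2 scale, against 0.569 for nuclear members and 0.544 for all genes tested. Without TAC dantrolene 2 the medians were 0.544, 0.526 and 0.537, so outside that library the members of both genomes varied about as much as other genes.

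**Figure D3:**
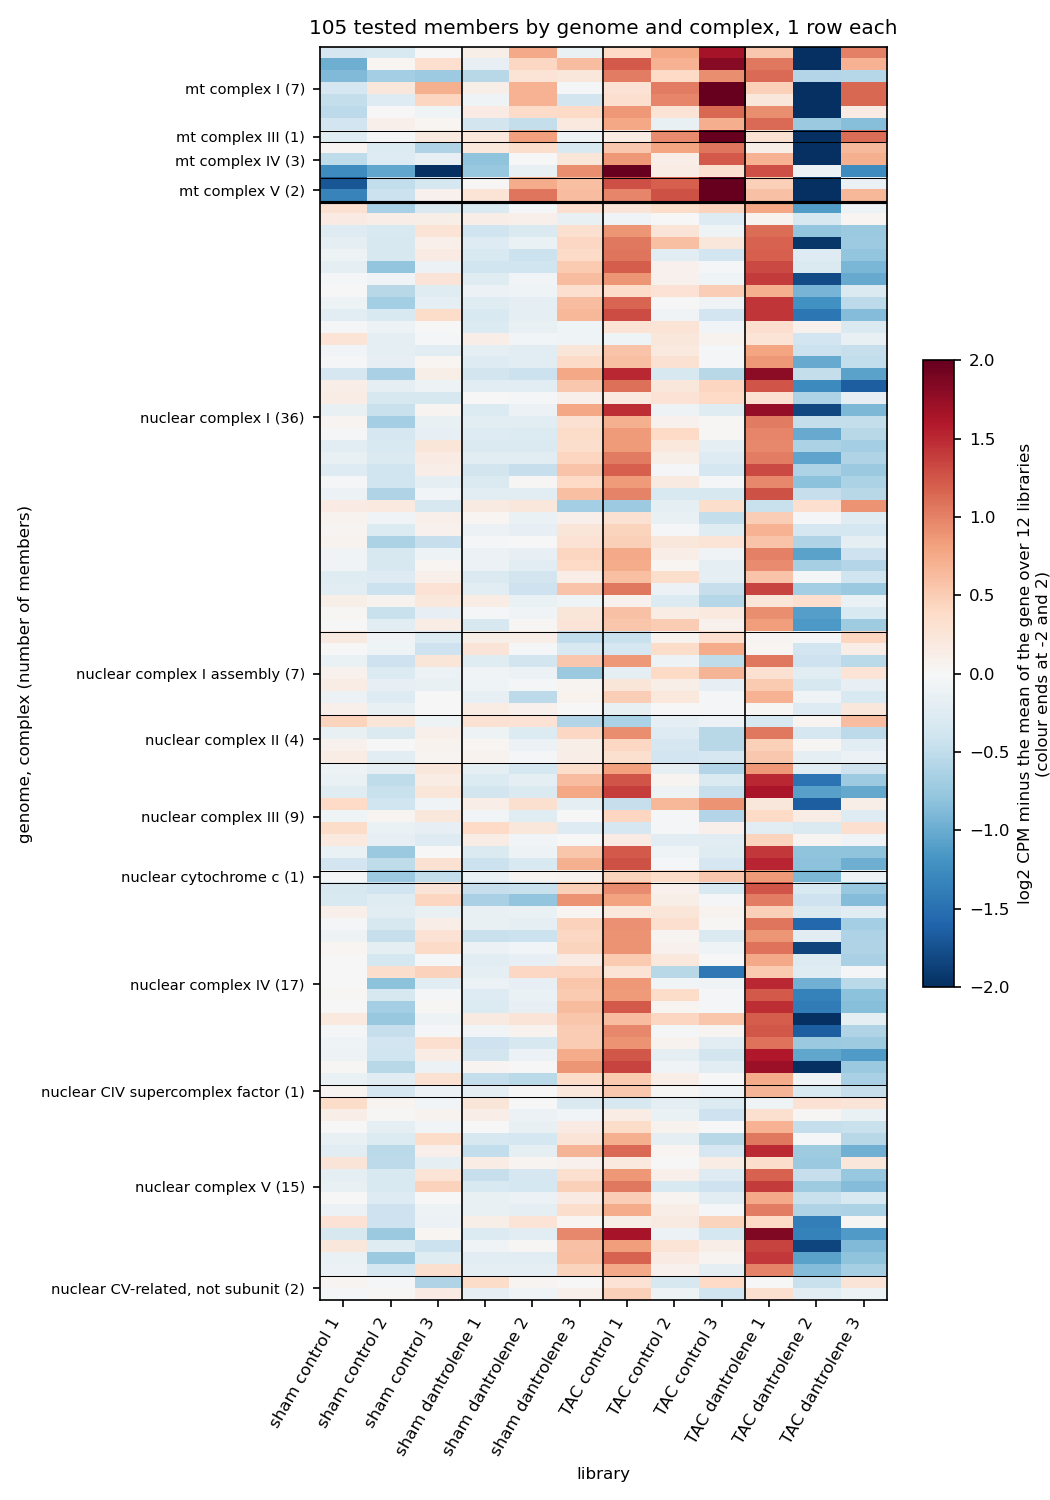
Log2 CPM of each of the 105 tested members minus its mean over 12 libraries, with mitochondrial rows above the thick line and nuclear rows below, ordered by complex, and 1 column per library. Nuclear rows are mostly red in TAC control 1 and TAC dantrolene 1 and mostly blue in TAC dantrolene 2 and 3, while mitochondrial rows are darkest red in TAC control 3.

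TAC dantrolene 2 was low in both sets, but not evenly. Against the median of the other 11 libraries it was 147 times lower for mt-Nd4, 91.8 times for mt-Atp8, 83.8 times for mt-Nd2, 48.4 times for mt-Cytb and 29.2 times for mt-Nd1. The drop was 6.89-fold for mt-Co1, which alone made up 91.0% of the mitochondrial member counts there, against 67.4% to 82.9% elsewhere. For mt-Nd6, the one member read from the other strand (chrM:13552-14070, minus strand), it was 1.73-fold, for mt-Nd3 1.76-fold, and mt-Co3 was not lower, at 189 CPM against a median of 187 CPM.

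The ribosomal RNAs of the same genome, which are no members, were 6.04 times (mt-Rnr1) and 4.13 times (mt-Rnr2) lower in that library. Of the 92 nuclear members 22 were more than 2-fold below the other libraries' median and 10 were above it. The lowest were Cox7b, a small subunit of complex IV, at 80.0 CPM against 368 to 1443 CPM elsewhere (9.28-fold), and Ndufa4, another complex IV subunit, at 318 CPM against 952 to 5227 CPM (5.02-fold). The alpha subunit of complex V, Atp5a1, and the complex I flavoprotein Ndufv1 were above it. What sets this library apart was not tested.

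The first comparison was pressure overload without the drug, TAC control against sham control. Here all 13 mitochondrial members had a positive fold change, with a median of 1.30 on the log2 scale, and 77 of 92 nuclear members did, with a median of 0.41, while 57.2% of all genes tested did, with a median of 0.10. The nuclear median depended on TAC control 1, 1 of the 4 libraries apart, and was 0.07 without it. No member passed the edgeR quasi-likelihood test at an adjusted p of 0.05, as for 0.0% of the 14965 genes tested, so none is called changed. At an unadjusted p under 0.05 there were 3 mitochondrial members and 0 nuclear ones, all 3 higher, against 7.93% of genes (4.13% higher and 3.8% lower). Every TAC control library was above every sham control library for 9 of the 13 mitochondrial and 15 of the 92 nuclear members, against 7.54% of all genes.

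For mt-Nd1 the sham control libraries had 5297, 5449 and 6674 CPM and the TAC control libraries 8795, 11445 and 21205 CPM. The groups did not overlap, and the log2 fold change was 1.25 ± 0.86 (SE, edgeR adjusted p = 0.73, n = 3 each). For mt-Cytb the values were 4498, 5168 and 6015 CPM against 5908, 10320 and 22371 CPM, a log2 fold change of 1.30 ± 0.97 (SE, edgeR adjusted p = 0.75), and here the groups overlapped. In complex IV mt-Co1 had 71211, 57217 and 45881 CPM against 100503, 120368 and 145888 CPM, with no overlap and a log2 fold change of 1.07 ± 0.62 (SE, edgeR adjusted p = 0.68).

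The complex V median was the highest of the mitochondrial ones, 2.15. For mt-Atp6, which forms part of the proton channel, sham control had 59.1, 138 and 152 CPM and TAC control 470.1, 440.3 and 823 CPM, a log2 fold change of 2.31 ± 0.75 (SE, edgeR adjusted p = 0.51), and the groups did not overlap. For mt-Nd6 the values were 287, 401 and 384 CPM against 639, 338 and 617 CPM, 0.57 ± 0.49 (SE, edgeR adjusted p = 0.78), with overlap and the smallest change of the 13. With the trend of each library on transcript GC content and length removed, described further on, the mt-Nd6 change was -0.79 and the median of the 13 was 0.29. The adjusted p of the 13 members lay between 0.458 and 0.785.

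The largest fold change of any member was that of mt-Co3, the third mitochondrial subunit of complex IV (chrM:8607-9390), named after its values were seen. Sham control had 85.8, 101 and 47.3 CPM, and TAC control 3265, 229 and 261 CPM, so a single mouse, TAC control 1, set the size of the difference. The log2 fold change was 4.005 ± 1.05 (SE, edgeR adjusted p = 0.458), and 1.65 without TAC control 1. DESeq2 called mt-Co3, with a log2 fold change of 4.02 and an adjusted p of 0.0020, where it called 0.533% of genes (0.317% higher, 0.216% lower).

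Nearly the whole of mt-Co3 is shared with Gm28437, which had 15.4, 10.3 and 9.52 CPM in sham control and 48.2, 46.7 and 203 CPM in TAC control. Member and copy together summed to 3314 CPM in TAC control 1 and to between 56.8 and 532 CPM in the other 11 libraries. In TAC control 3 the copy held 43.8% of the joint reads, against 1.45% to 16.9% in the other 11 libraries. The split of these reads between the loci was not tested.

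Without the 4 libraries apart, 8 libraries remained and 2 members passed the edgeR test under pressure overload, mt-Nd3 at a log2 fold change of 1.44 (adjusted p = 0.0303) and mt-Co3 at 1.37 (adjusted p = 0.0488), where 3.21% of genes passed (1.18% higher, 2.03% lower). Both have a nearly whole nuclear copy. With all 12 libraries mt-Nd3, a complex I core subunit (chrM:9459-9806), had 23.1, 26.6 and 25.5 CPM in sham control and 86.6, 55.9 and 81.0 CPM in TAC control. Its groups did not overlap, with a log2 fold change of 1.57 ± 0.44 (SE, edgeR adjusted p = 0.47).

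Among the nuclear members by complex, the median log2 fold change was 0.48 for the 36 subunits of complex I (32 positive), 0.28 for the 7 assembly factors (6 positive), 0.46 for complex III (6 of 9), 0.46 for complex IV (16 of 17 tested) and 0.29 for complex V (13 of 15). Complex II, the only complex with no mitochondrial subunit, had 1 of 4 positive and a median of -0.12. Each of the 4 complexes with subunits from both genomes had a higher median in its mitochondrial part: 1.25 in complex I, 1.30 in complex III, 1.12 in complex IV and 2.15 in complex V. These are counts and medians, with no test of the difference between the sets. They include TAC control 1, where the nuclear subunits of complex I had a mean log2 CPM of 9.83. That mean was 9.23 and 9.06 in TAC control 2 and 3, and 9.08, 8.80 and 9.12 in sham control.

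**Figure D4:**
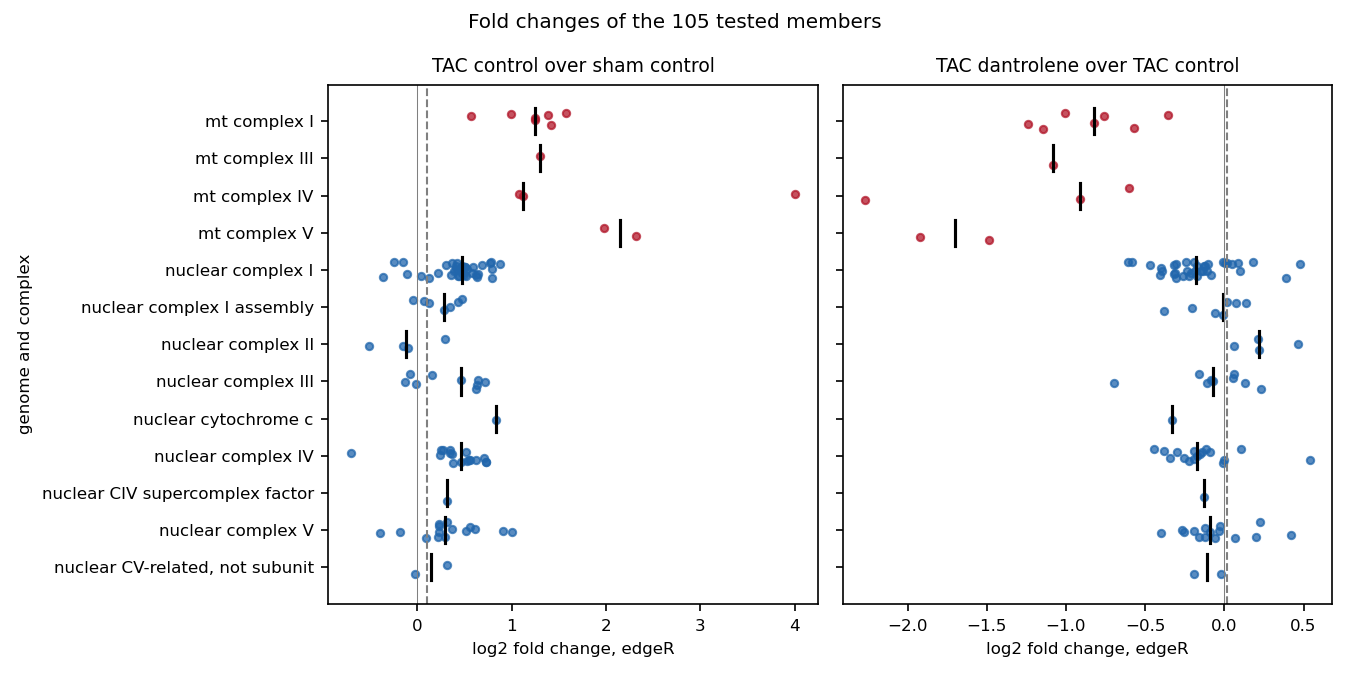
Log2 fold changes from edgeR for TAC control over sham control (left) and TAC dantrolene over TAC control (right), 1 point per tested member by genome (mitochondrial red, nuclear blue) and complex, with black lines at the median of each row and a dashed line at the median of all genes. The points of both genomes overlap, but the median of the mitochondrial ones is higher than the nuclear median on the left (1.30 against 0.41) and lower on the right (-1.01 against -0.12); none passed the adjusted threshold.

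The nuclear members with the smallest p upwards were Cycs, Ndufs4 and Ndufa5. Cycs, the mobile electron carrier, had 916, 557 and 668 CPM in sham control and 1266, 1194 and 1351 CPM in TAC control, with no overlap and a log2 fold change of 0.83 ± 0.40 (SE, edgeR adjusted p = 0.645). The accessory complex I subunit Ndufs4 had 299, 182 and 207 CPM against 398, 332 and 344 CPM, 0.64 ± 0.33 (SE, edgeR adjusted p = 0.66). For Ndufa5, also an accessory subunit, the change was 0.63 ± 0.38 (SE, edgeR adjusted p = 0.69), again without overlap.

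Downwards they were Cox6b2, Sdha and Atp5a1. Sdha, the flavoprotein of complex II that also works in the citric acid cycle, had 1146, 994 and 784 CPM in sham control and 542, 741 and 776 CPM in TAC control. Its groups did not overlap, and its log2 fold change was -0.51 ± 0.35 (SE, edgeR adjusted p = 0.74). Atp5a1, the alpha subunit of complex V, had 5963, 4851 and 4453 CPM against 3717, 4094 and 3836 CPM, also with no overlap, at -0.39 ± 0.30 (SE, edgeR adjusted p = 0.76). Cox6b2, a minor isoform of subunit VIb, had 4.77, 6.11 and 6.58 CPM against 5.77, 3.22 and 1.73 CPM, -0.71 ± 0.43 (SE, edgeR adjusted p = 0.70). Ndufa10 was the third member below every sham control library, and 9.82% of all genes were.

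Of the core nuclear subunits fixed for description, Ndufs1, the iron-sulfur entry of complex I, had a log2 fold change of -0.15 ± 0.40 and Uqcrc1, a core protein of complex III, -0.08 ± 0.33. Cox4i1 had 0.46 ± 0.54 and Atp5b, the catalytic beta subunit of complex V, -0.19 ± 0.31 (SE, edgeR adjusted p between 0.837 and 0.958 for these 4). All 4 had overlapping groups. Within complex I the 7 core nuclear subunits had a median of 0.12, with 4 positive, and the 29 accessory subunits 0.50, with 28 positive.

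The second comparison asked what dantrolene changed under pressure overload, TAC dantrolene against TAC control. All 13 mitochondrial members were lower, with a median log2 fold change of -1.01, and 67 of 92 nuclear members were, with a median of -0.12, while 48.2% of all genes were lower and 51.8% higher, with a median of 0.02. No member passed the edgeR test at an adjusted p of 0.05, nor did any gene (0.0%), and adjusted p was 0.9997 for every member named here. Unadjusted p was under 0.05 for 2 mitochondrial members (mt-Co3 and mt-Atp6) and 0 nuclear ones, against 3.25% of genes (1.78% higher, 1.47% lower). DESeq2 called 0 members and 0.0809% of genes (0.0202% higher, 0.0607% lower). In 2 of 13 mitochondrial members, mt-Atp6 and mt-Atp8, all TAC dantrolene libraries were below all TAC control libraries, against 2.08% of genes.

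For mt-Atp6 TAC dantrolene had 267, 14.5 and 176 CPM after 470.1, 440.3 and 823 CPM in TAC control, a log2 fold change of -1.92 ± 0.74 (SE, edgeR). For mt-Nd1 the TAC dantrolene values were 9719, 302 and 13432 CPM, at -0.82 ± 0.85, and for mt-Cytb 6575, 128 and 11552 CPM, at -1.08 ± 0.97. The mt-Co1 values were 75168, 11667 and 108378 CPM, at -0.91 ± 0.62. In the last 3 genes TAC dantrolene 2 was far below the other libraries of its group. Its 2 companions lay within the range of TAC control for mt-Nd1 and mt-Cytb, and for mt-Co1 1 of them lay below it.

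Without TAC dantrolene 2 the median over the mitochondrial members was -0.43. For mt-Nd6, with 817, 222 and 208 CPM in TAC dantrolene, the log2 fold change was -0.35 ± 0.49 (SE, edgeR). For mt-Co3, with 504, 189 and 85.9 CPM, it was -2.27 ± 0.97 (SE, edgeR), and 0.084 without TAC control 1, the library with 3265 CPM.

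The nuclear members with the smallest p upwards were Atp5a1 (4402, 5685 and 5533 CPM in TAC dantrolene, log2 fold change 0.42 ± 0.30), Ndufv1, the NADH-oxidising flavoprotein of complex I (1374, 1469 and 1065 CPM after 1238, 965 and 785 CPM, 0.39 ± 0.29), and Sdha (676, 875 and 1291 CPM, 0.46 ± 0.35; SE, edgeR, all 3). Atp5a1 was the only nuclear member whose TAC dantrolene libraries were all above TAC control, against 2.68% of genes. Downwards they were Ndufb3 (-0.41 ± 0.28), Uqcrb, a small complex III subunit (-0.70 ± 0.47), and the assembly factor Ndufaf2 (-0.38 ± 0.31; SE, edgeR, all 3). All 4 complex II genes had a positive change, with a median of 0.22, while 8 of 36 complex I, 4 of 9 complex III, 2 of 17 complex IV and 4 of 15 complex V subunits did.

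The nuclear median depended on 1 library, and it was -0.90 without TAC dantrolene 1 and 0.16 without TAC control 1. Without the 4 libraries apart, 11 members passed the edgeR test and all were lower in TAC dantrolene, where 3.17% of genes passed, 1.53% lower and 1.65% higher. They were Ndufb2, Ndufa3, Ndufv3, Ndufa12, Ndufa11 and mt-Nd3 of complex I, Cox7a1 and Cox5b of complex IV, and Atp5k, Atp5j2 and Atp5l of complex V. Furthest from 0 was Ndufb2, an accessory subunit, at a log2 fold change of -1.79 (adjusted p = 0.0095), with 14.8 and 11.5 CPM in the 2 TAC dantrolene libraries kept and 42.0 and 48.9 CPM in the 2 TAC control ones. In the TAC dantrolene library left out Ndufb2 had 86.4 CPM, the highest of all 12. The libraries kept also differ in how level goes with transcript length, described further on. Over the nuclear members Spearman's rho with length was 0.57 and 0.58 in the 2 TAC dantrolene libraries kept, where short transcripts stood low. It was -0.27 and -0.10 in the 2 TAC control ones. Trends on GC and length were not removed in this fit, and their part in these calls was not tested.

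In sham-operated mice dantrolene was compared with no drug. Here 12 of 13 mitochondrial members had a positive change, with a median of 0.42, and 68 of 92 nuclear members did, with a median of 0.11, against 52.5% of genes (47.5% were negative) and a median of 0.02. No member or gene (0.0%) passed the edgeR test, and unadjusted p was under 0.05 for 0 members and 0.715% of genes. All sham dantrolene libraries were above all sham control libraries for 5 mitochondrial and 0 nuclear members, against 2.99% of genes, and below them for 0 members, against 4.38%. For mt-Atp6 sham dantrolene had 197, 322 and 294 CPM, a log2 fold change of 1.22 ± 0.73 (SE, edgeR), and for mt-Nd6, which was lower, 290.0, 269.5 and 429 CPM, at -0.12 ± 0.49.

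Smallest in p upwards among nuclear members were Ndufs4 (0.40 ± 0.33), Atp5s (0.31 ± 0.30) and Cycs (0.38 ± 0.40), and downwards Ndufaf4 (-0.19 ± 0.29), Ndufv1 (-0.15 ± 0.29) and Uqcrc1 (-0.16 ± 0.33; log2 fold change ± SE, edgeR, all 6). Cycs and Ndufs4 had also led the overload comparison, which shares the sham control libraries with this one. None of these changes exceeded its standard error by more than a factor of 1.5.

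In mice given dantrolene, TAC was compared with sham surgery. The mitochondrial median was -0.03, with 5 of 13 members positive, and the nuclear median 0.13, with 72 of 92 positive, against 59.9% of genes and a median of 0.08. The sign of both medians depended on single libraries: without TAC dantrolene 3 the mitochondrial median was -0.72 and without TAC dantrolene 2 it was 0.49, and the nuclear median was -0.58 without TAC dantrolene 1 and 0.38 without TAC dantrolene 2. Again no member or gene (0.0%) passed the edgeR test. The nuclear members with the smallest p were Ndufaf4 (0.42 ± 0.29), Ndufaf6 (0.36 ± 0.29) and Ndufs1 (0.40 ± 0.40) upwards and Atp5j (-0.29 ± 0.40), Uqcrb (-0.33 ± 0.47) and Atp5s (-0.19 ± 0.30) downwards (log2 fold change ± SE, edgeR). Ndufaf4 and Ndufaf6 are assembly factors of complex I. The direction turned for Ndufaf6 without TAC dantrolene 1 (-0.039), and for Atp5j (0.081) and Uqcrb (0.067) without TAC dantrolene 2.

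Whether the effect of the drug differed between the surgery arms was tested directly as an interaction. Its log2 value was negative for all 13 mitochondrial members, with a median of -1.35, and for 71 of 92 nuclear members, with a median of -0.27, against 50.5% of genes. Lowest in unadjusted p were mt-Atp6 (-3.14 ± 1.04), mt-Co3 (-3.86 ± 1.36) and mt-Nd3 (-1.36 ± 0.61), all with a nearly whole nuclear copy. No member or gene (0.0%) passed at the edgeR adjusted threshold, and 2.82% of genes had an unadjusted p under 0.05, as did these 3 members and 0 nuclear ones. The nuclear members with the smallest p were Ndufv1 (0.54 ± 0.40), Atp5a1 (0.55 ± 0.43) and Sdha (0.61 ± 0.50) upwards and Ndufs4 (-0.72 ± 0.46), Ndufb3 (-0.58 ± 0.39) and Ndufa5 (-0.69 ± 0.53) downwards (SE, edgeR).

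The transcripts of the members differ from those of other genes in length and in base composition, features the selection did not use. The GC share of the transcript was 31.9% to 41.1% in the 13 mitochondrial members, with a median of 37.1%, against a median of 52.0% in the 92 nuclear members and 50.9% in 14802 other genes. The median transcript was 784 bases long in the mitochondrial set and 804 in the nuclear set, against 2627 bases in the other genes. Both sets are thus short, and the mitochondrial set is also poor in GC.

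Libraries differed along both features. The Spearman rho across the 14802 other genes between GC share and the level of a library against the median library was -0.64 in TAC control 3, -0.56 in TAC dantrolene 3, -0.26 in sham dantrolene 2 and -0.22 in TAC control 2. In the other 8 libraries it was between 0.05 and 0.38. The 4 libraries with a negative rho were the 4 with the largest mitochondrial share, 21.8%, 16.3%, 13.2% and 15.2%. Genes are not independent replicates, and these values describe the libraries.

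Within the nuclear set, rho with GC ran from -0.50 in sham dantrolene 2 to 0.72 in sham control 3, over 92 members of the same library. With transcript length it was -0.57 in TAC dantrolene 1, -0.55 in sham dantrolene 3 and -0.50 in TAC control 1, where short transcripts stood high, and 0.57 in TAC dantrolene 2 and 0.58 in TAC dantrolene 3, where they stood low. The other genes had the same sign in these 5 libraries, with rho of -0.41, -0.34, -0.35, 0.38 and 0.36. By the length of all exons together, the 30 shortest nuclear members had a mean log2 deviation from their own means over 12 libraries of 1.06 in TAC dantrolene 1 and -0.97 in TAC dantrolene 2, and the 30 longest 0.58 and -0.46, so both ends moved the same way and the short ones further. Atp5g1, whose first annotated transcript has 4715 bases, was high in TAC dantrolene 1 (1.19) and low in TAC dantrolene 2 (-0.46). Which transcript of a gene the heart expresses was not tested.

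**Figure D5:**
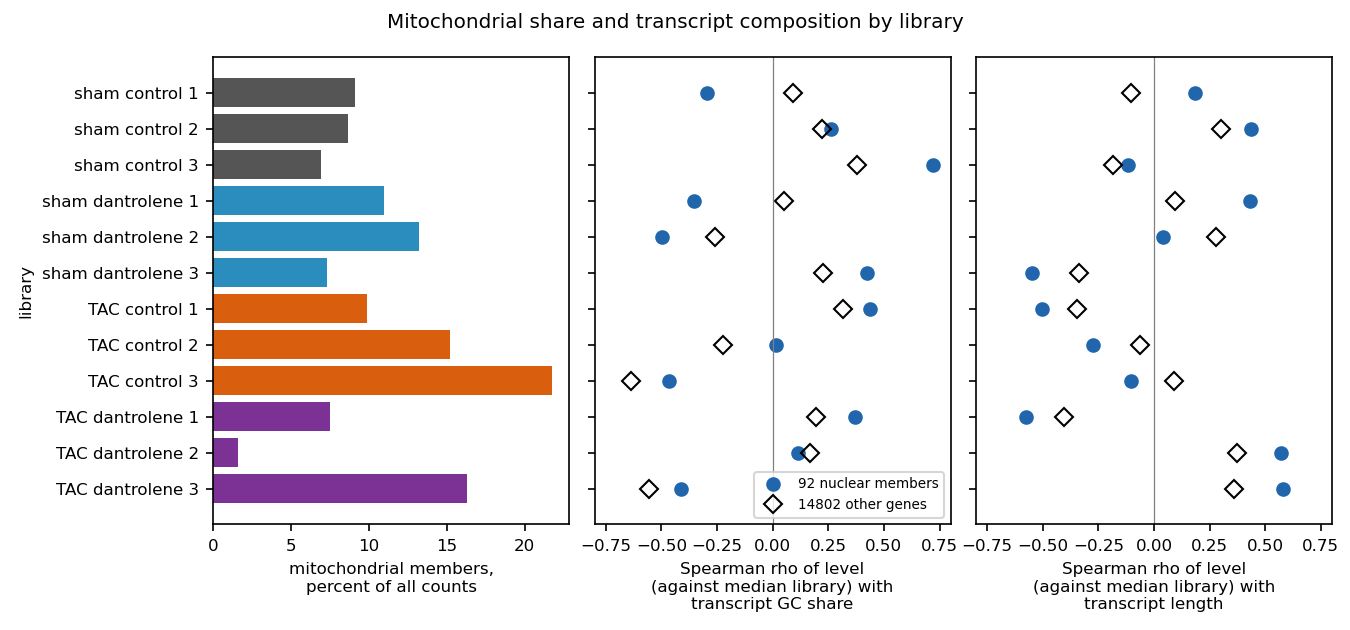
For each library, the percent of all counts from mitochondrial members (left), and Spearman's rho between the level of a gene against the median library and its transcript GC share (middle) or length (right), for 92 nuclear members (filled) and 14802 other genes (open). The 4 libraries with rho below 0 for GC over other genes, from -0.64 to -0.22, have the largest mitochondrial shares, and the 3 with the lowest length values for the nuclear members are sham dantrolene 3, TAC control 1 and TAC dantrolene 1.

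When the trend of each library on GC and length, fitted over genes that are not members, was removed, the median of the mitochondrial members in TAC control against sham control was 0.29 in place of 1.30, with 12 of 13 positive, and that of the nuclear members 0.16 in place of 0.41, with 64 of 92 positive. In TAC dantrolene against TAC control the medians were -0.82 and -0.08, with 11 of 13 and 57 of 92 negative. For mt-Nd6 the direction reversed in both comparisons, to -0.79 and 0.41. The edgeR test called 0 members in this fit, which was added after the data had been seen. The mitochondrial members, at 31.9% to 41.1% GC, lie below the 50.9% median of the genes fitted. How well the trend holds at such GC shares was not tested, nor whether the trends come from the tissue or the preparation.

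Several complex IV subunits exist as a widely expressed form and as a form of heart and skeletal muscle, and their ratios in FPKM were mostly steady across groups. The muscle form Cox6a2 was 15.4 times its partner Cox6a1 at the median of 12 libraries, with a range of 14.3 to 18.5 in the 11 libraries other than TAC dantrolene 2, where it was 4.63. Cox7a1 was 3.75 times Cox7a2 (2.87 to 4.75) and Cox8b 7.24 times Cox8a (5.47 to 10.4). Cox4i1 was 185 times the hypoxia-related Cox4i2 (134 to 227). The first 3 ratios put the muscle form ahead in every library.

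Cox6b1 was 468 times Cox6b2, with 291 to 476 in the sham control and 563 to 1312 in the TAC control libraries, which do not overlap, though Cox6b2 had few reads. Ndufa4 was 85.1 times Ndufa4l2, its paralog induced by hypoxia, with 17.5 in TAC dantrolene 2 and 163 in TAC dantrolene 1 at the ends. The 3 genes of the complex V c subunit, whose mature protein is the same, had log2 fold changes under overload of 0.37 ± 0.51 (Atp5g1), 0.23 ± 0.60 (Atp5g2) and 0.22 ± 0.37 (Atp5g3; SE, edgeR). None of the 3 differed beyond its error.

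Other genes that serve this pathway were followed in fixed lists. Of 45 assembly factors outside the rule, 29 were positive under overload, with a median log2 fold change of 0.15, and the smallest p were those of Tmem126a (0.63 ± 0.32) and Hccs (0.79 ± 0.43) upwards and Cox10 (-0.64 ± 0.26) and Tmem177 (-0.52 ± 0.27) downwards. Of 21 genes for maintenance and transcription of mitochondrial DNA 10 were positive, with a median of 0.00, led by Tfb2m (0.96 ± 0.57) and Ssbp1 (0.71 ± 0.47), with Polrmt, the mitochondrial RNA polymerase, at -0.37 ± 0.26 and Polg at -0.30 ± 0.27. The mitochondrial DNA genes were thus split evenly about 0, where all 13 mitochondrial members were positive.

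Of 20 genes for processing and stability of mitochondrial RNA 13 were positive, with a median of 0.13, led by Trmt10c (1.11 ± 0.56) and Rexo2 (0.52 ± 0.26), with Ptcd1 (-0.70 ± 0.27) and Supv3l1 (-0.49 ± 0.24) lowest in p downwards. Of 77 proteins of the mitochondrial ribosome 65 were positive, with a median of 0.33, close to the 0.41 of the nuclear members. Among them were Mrpl21 (0.55 ± 0.24) and Mrpl32 (0.80 ± 0.40), and downwards Mrpl44 (-0.29 ± 0.22) and Mrpl10 (-0.28 ± 0.26). Of 16 transcriptional regulators 7 were positive, with a median of -0.08: Gabpa (0.52 ± 0.28) and Esrrg (0.66 ± 0.40) upwards, Esrrb (-0.83 ± 0.31) and Perm1 (-0.63 ± 0.36) downwards. No gene of the 5 lists passed the edgeR test (SE throughout).

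In TAC dantrolene against TAC control the regulators had 13 of 16 positive and a median of 0.22, with Ppargc1b (1.60 ± 0.69) and Ppargc1a (0.67 ± 0.32), the coactivators known to drive mitochondrial biogenesis, smallest in p upwards and Nrip1 (-0.20 ± 0.39) and Gabpa (-0.12 ± 0.28) downwards. Ppargc1b had 2.71, 2.42 and 1.999 CPM in TAC control and 1.17, 15.5 and 4.89 CPM in TAC dantrolene, so its groups overlapped and its highest value was that of TAC dantrolene 2. The mitochondrial ribosome had 20 of 77 positive and a median of -0.09, led by Mrpl45 (0.31 ± 0.21) and Mrps27 (0.33 ± 0.29) upwards and Mrps36 (-0.68 ± 0.39) and Mrpl42 (-0.73 ± 0.48) downwards. The other 3 lists had medians of -0.01 (assembly factors, 22 of 45 positive), 0.11 (DNA maintenance and transcription, 14 of 21) and 0.14 (RNA processing, 13 of 20). Smallest in p upwards were Atpaf1 (0.43 ± 0.23), Cox15 (0.74 ± 0.41), Primpol (1.09 ± 0.67), Polg2 (0.45 ± 0.34), Lrpprc (0.59 ± 0.33) and Supv3l1 (0.35 ± 0.24). Downwards they were Tmem126a (-0.79 ± 0.32), Cmc1 (-0.70 ± 0.33), Rnaseh1 (-0.64 ± 0.36), Ssbp1 (-0.78 ± 0.48), Rexo2 (-0.56 ± 0.26) and Slirp (-0.57 ± 0.59; SE throughout). No gene of these lists passed the edgeR test.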

How the data were processed

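Paired 150-base reads of poly(A) RNA came from directional libraries (source: the labels' protocols). GRCm38, TopHat2, bcl2fastq and edgeR appear in the submitters' processing notes, without roles or versions. How reads were counted, with which annotation and strand, is not given in the sources used here, so overlapping genes may share reads. The authors deposited raw counts per gene and, separately, FPKM values. Members and lists were chosen with earlier results of these data known. Named genes followed a rule on role, complex and smallest p, except mt-Co3, mt-Nd3, Cox7b, Ndufb2 and members with printed sequences or in lists of all calls, which were named after their values were seen.

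Counts were fitted as deposited in edgeR 4.0.16 (R 4.3.3): filterByExpr (minimum count 10, total 15), TMM, 4 group means over 12 libraries, robust quasi-likelihood tests, 8 residual degrees of freedom, two-sided p adjusted by Benjamini and Hochberg over 14965 genes. The SE given for edgeR was derived from its test, as the absolute log2 fold change divided by the square root of the F statistic. CPM values use TMM-adjusted totals, and log2 CPM a prior count of 2. The spread between mice (biological coefficient of variation 0.443) exceeds counting noise. The method was tested on simulated data. Copies were found with BLASTN 2.17.0 in GENCODE vM21 transcripts (25116 genes matched, all 106 members), GC and length from their first transcript.

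Within each surgery arm, same-numbered libraries deviated together (correlations 0.465, 0.366 and 0.672 in sham, 0.556, 0.300 and 0.613 in TAC, each above 0.1). The numbers were therefore taken to pair them there. Unlike-numbered libraries ran from -0.62 to 0.38 in sham and from -0.56 to 0.22 in TAC, so the numbers do not separate pairs fully. Across arms same-numbered libraries did not all deviate together (-0.29, 0.28 and -0.30 in controls, -0.38, 0.27 and -0.31 with dantrolene). The main fit does not use the pairs. Alternatives were DESeq2 1.42.0, other scalings, no filter, replicate blocks, each library left out, 8 libraries, members without copies, and removal of GC and length trends.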

Additional observations from a re-analysis of the deposited data

How the results depend on the processing

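No member was called in any of the 5 comparisons by edgeR with all libraries, by its fits with other scalings or no filter, by the 12 fits leaving out 1 library, or after the removal of GC and length trends. A replicate block over all groups called 0 members, and so did a replicate block within each surgery arm, where the mitochondrial and nuclear medians were -1.59 and -0.30 for TAC dantrolene against TAC control; with the trends also removed they were -1.16 and -0.10. The members called elsewhere were 1 by DESeq2 and 2 without the 4 libraries apart in TAC control against sham control, and 11 without those libraries in TAC dantrolene against TAC control.

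Leaving out 1 library at a time, the mitochondrial median ran from 0.85 to 1.52 under overload, from -1.50 to -0.43 for the drug under TAC, and from -1.97 to -0.78 for the interaction. It changed sign for TAC against sham in treated mice (-0.72 to 0.49), as did the nuclear median for the drug in sham mice (-0.063 to 0.19). The nuclear median ran from 0.07 to 0.55 under overload, and was lowest without TAC control 1. For the drug under TAC it ran from -0.90 to 0.16, and for the interaction from -1.04 to 0.052. For TAC against sham in treated mice it ran from -0.58 to 0.38. The lowest value of these last 3 ranges was reached without TAC dantrolene 1. Without the 4 libraries apart the last of these was -0.39. The other 306 values were labelled the same, a count if it did not change and a median if it moved by less than the spread between replicates. That spread was 1.6 on the log2 scale for the mitochondrial members, TAC dantrolene 2 included, and 0.507 for the nuclear ones. Such a wide limit lets a median that shrank or changed sign pass as the same, so this label does not show that a median was stable. Directions reversed for mt-Co3 in the drug comparison without TAC control 1 (leaving out 1 library gave -3.21 to 0.084), for mt-Nd6 (-0.79 under overload, 0.41 for the drug, 0.27 with the block added) and mt-Nd3 (0.34, and 0.18 with the block, for the drug) after trend removal, and in TAC against sham with the drug for Ndufaf6 without TAC dantrolene 1 (-0.039) and for Atp5j (-0.70 to 0.081) and Uqcrb (-0.66 to 0.067) without TAC dantrolene 2. The cause was not tested. Low counts limit mt-Nd4l (6 reads in TAC dantrolene 2) and Cox7b2.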
